A study of Mus musculus with 2 samples.

Results

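Tcf7, Lef1, Satb1, Bach2 and Id3 encode transcription regulators used to describe T cells that keep the capacity to persist and renew, and they are 5 of the 15416 genes counted here. The genes were chosen by name, and their unique molecular identifiers (UMIs, tags that let each captured transcript be counted once) were read over the authors' 16 subclusters and over 3 mice. The cells were CD45+ JAML+ cells sorted from mouse tumours and measured by droplet RNA sequencing with 10x Genomics 5' v2 chemistry, in a series that looks at JAML (junction adhesion molecule-like) on resident memory T cells as a point of attack for immunotherapy. The hashtags read B16F10, a mouse melanoma line, and isotype control for all 3 mice, so every cell belongs to 1 group and no treated group was analysed here. Strain, age and sex are not given in the sources used here, and the labels name the cells T cells while the extraction text adds TREG. There is no treatment contrast, so the results are levels across subclusters and comparisons between classes of CD8 T cells within the same 3 mice.

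Tcf7 encodes TCF-1 and Lef1 encodes its relative LEF-1. Both are HMG-box proteins that bind the same short DNA letters, recruit β-catenin or Groucho/TLE corepressors, and are high in naive, central memory and stem-like exhausted CD8 T cells. Satb1 encodes a chromatin organiser that holds back Pdcd1 transcription in T cells, Bach2 encodes a repressor that competes with AP-1 factors at effector genes, and Id3 encodes an inhibitor that ties up E proteins and is typical of memory precursors, where Id2 is typical of effector cells.

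In mm10, the build of the submitters' processing notes, Tcf7 lies on the minus strand at chr11:52252371-52283014, Lef1 on the plus strand at chr3:131110471-131224356, Satb1 on the minus strand at chr17:51736187-51833290, Bach2 on the plus strand at chr4:32238804-32586108 and Id3 on the plus strand at chr4:136143497-136145755 (GENCODE M21). Tcf7 overlaps the same-strand Gm26551 (104 UMIs) and the antisense A630014C17Rik (11 UMIs), Lef1 overlaps the antisense Gm43352 (86 UMIs), and Bach2 overlaps the antisense Bach2os (11 UMIs) in all cells. Strand handling in the counting is not given in the sources used here, so reads of these pairs cannot be told apart. All 5 symbols matched promoters of the RefSeq table for GRCm38.p6. The 250 bases before each listed start were searched on both strands for ACAAAG and TCAAAG, the core letters bound by TCF/LEF proteins. Such letters stood before 1 of 4 Lef1 starts, before the 1 Bach2 start and before 2 of 5 Satb1 starts. The 2 Satb1 windows overlap each other, hold the same match and overlap Satb1 exons. No match stood before the 2 Tcf7 starts or the 1 Id3 start. The inner Tcf7 window and the Id3 window also overlap exons of their genes. Of 32851 promoters in the table, 27.6% hold a match, so the counts are a description and name no site. The outermost Lef1 window (chr3:131110047-131110296), the matching Lef1 window inside the gene (chr3:131156044-131156293) and the Bach2 window (chr4:32417185-32417434) follow, each on the plus strand, with the matches in capitals. The Bach2 window also lies inside its gene and not at the gene's outer end. The Lef1 matches begin 180, 146 and 120 bases before the start, and the Bach2 match 93 bases before it.
Lef1, outermost start: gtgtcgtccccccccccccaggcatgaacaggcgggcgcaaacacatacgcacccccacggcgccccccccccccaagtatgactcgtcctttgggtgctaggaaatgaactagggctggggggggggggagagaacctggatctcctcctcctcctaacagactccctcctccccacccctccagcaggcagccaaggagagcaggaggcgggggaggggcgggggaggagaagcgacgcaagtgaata
Lef1, start inside the gene: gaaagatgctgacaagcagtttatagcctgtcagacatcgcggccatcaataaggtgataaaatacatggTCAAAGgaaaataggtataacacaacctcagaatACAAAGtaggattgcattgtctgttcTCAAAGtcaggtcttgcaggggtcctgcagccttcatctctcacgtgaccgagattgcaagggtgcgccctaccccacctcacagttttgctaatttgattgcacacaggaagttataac
Bach2: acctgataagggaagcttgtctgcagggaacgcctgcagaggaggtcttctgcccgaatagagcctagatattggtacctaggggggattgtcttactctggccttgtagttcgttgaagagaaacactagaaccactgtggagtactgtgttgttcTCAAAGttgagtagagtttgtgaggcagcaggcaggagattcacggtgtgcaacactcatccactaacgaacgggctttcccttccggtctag

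The 3 mice gave 5968 cells (1184 to 2445 per mouse) with medians of 11648 to 16912 UMIs per cell, and no cell barcode was shared between mice. 8 further cells carried no hashtag and were left out. The labelled T cells were a mixture by transcripts. Subclusters 1, 5, 7, 8, 10, 14 and 15 carried 5 to 10 of the 11 T cell markers and are called T cell-like, with 8 and 14 dividing and 15 led by interferon-induced genes. Subcluster 3 carried 7 of 9 markers of NK cells and type 1 innate lymphoid cells, beside 3 of 5 measured γδ T cell markers, and is called NK-like. Subclusters 0 and 9 carried all 9 plasmacytoid dendritic cell markers, 6 and 11 were like type 1 and 4 like type 2 conventional dendritic cells, 12 like migratory mature dendritic cells and 2 like macrophages. Subcluster 13, led by Apod, stays unnamed. The authors put subclusters 1, 3, 7, 10 and 15 in their Cd3g cluster and 5, 8 and 14 in their Pdcd1 cluster. The subclusters were built on the expression of these same cells, so levels between them carry no test.

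Levels are given in CPM, the UMIs of a gene summed over the cells of 1 mouse and subcluster and scaled to 1000000 UMIs, given where a mouse had at least 10 cells. Tcf7 was highest in subcluster 10, a T cell-like group led by Dapl1 that counts Tcf7, Satb1 and Lef1 among its 10 leading genes, at 397, 329 and 324 CPM in mice 1, 2 and 3 (350 ± 40.9, SD, n = 3). Its lowest mouse lay above the highest mouse of the NK-like subcluster 3, which had 203, 212 and 275 CPM. Subcluster 7, a CD8 T cell-like group, had 210, 219 and 94.8 CPM, and overlapped subcluster 3. The next group, subcluster 1, had 96.1, 139 and 52.6 CPM and overlapped subcluster 7. The dividing subcluster 14 rested on mice 1 and 3, at 7.1 and 149 CPM, and has no firm place. Neighbours from the second place down through the dividing subcluster 8 (14.5, 48.1 and 60.7 CPM) to subcluster 5 did not separate by mouse. Subcluster 5, the part of the Pdcd1 cluster that met no dividing marker, was low at 13.2, 13.7 and 31.2 CPM. Its 6 dividing markers still summed to 447 CPM, against 3711 CPM in subcluster 8 and 98.4 CPM in subcluster 1. Outside the T and NK-like cells, Tcf7 was at 0.658 to 4.48 CPM on average with 1 exception. The mature dendritic cell-like subcluster 12 had 49.0, 34.4 and 69.0 CPM, all above each other dendritic cell or macrophage value.

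The Lef1 order began like that of Tcf7, with values in the same 4 subclusters. Subcluster 10 had 116, 216 and 194 CPM (175 ± 52.2, SD, n = 3), subcluster 3 had 91.4, 127 and 141 CPM, and the ranges overlapped. Subcluster 7 had 107, 83.8 and 93.9 CPM and its lowest mouse lay above the highest mouse of subcluster 1 (62.4, 74.8 and 77.6 CPM). In subcluster 8 Lef1 was at 11.2, 30.1 and 49.5 CPM, lowest in mouse 1 as Tcf7 was. Subcluster 14 had 8.52 and 74.6 CPM in mice 1 and 3. All dendritic cell and macrophage subclusters averaged 2.42 CPM or less. Subcluster 12, where Tcf7 was present, had Lef1 at 2.09, 0 and 2.06 CPM, and the plasmacytoid subcluster 0 had no Lef1 UMI in any mouse.

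Satb1 was again highest in subcluster 10, at 312, 340 and 344 CPM (332 ± 17.2, SD, n = 3), above every mouse of subcluster 3 at 209, 283 and 248 CPM. The next by mean, subcluster 15, rested on mice 2 and 3 at 241 and 35.6 CPM and has no firm place. Subcluster 7 had 187, 114 and 59.5 CPM, and subcluster 1 had 70.8, 49.9 and 25.7 CPM. Unlike Tcf7 and Lef1, Satb1 was present in the plasmacytoid dendritic cell-like cells, with 32.4, 29.1 and 34.6 CPM in subcluster 0 and 42.2, 18.3 and 40.1 CPM in subcluster 9. These overlapped the dividing T cell-like subcluster 8 (30.1 ± 17.9 CPM, SD, n = 3), and those of subcluster 9 also subcluster 5 (20.4 ± 5.47 CPM, SD, n = 3). It was lowest in the macrophage-like subcluster 2 at 3.93 ± 2.17 CPM (SD, n = 3).

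Bach2 had the flattest order and was the 1 member whose highest mean was outside the lymphocytes. The Apod-led subcluster 13 had 35.2, 29.0 and 59.2 CPM, subcluster 3 had 29.9, 45.5 and 34.6 CPM, and subcluster 10 had 41.5, 19.8 and 42.5 CPM. These 3 overlapped, so no first place can be given. Subcluster 7 followed at 20.5 ± 5.25 CPM (SD, n = 3) and subcluster 5 at 17.4 ± 8.72 CPM (SD, n = 3). Macrophage-like cells were lowest at 2.16 ± 1.21 CPM (SD, n = 3).

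Id3 was highest by mean in subcluster 10 at 93, 108 and 56.3 CPM, but the plasmacytoid subcluster 0 overlapped it with 29.6, 65.6 and 83.5 CPM. Mouse 1 was the lowest of the 3 in subcluster 0 and mouse 3 the highest. Subcluster 7 had 44.7, 69.5 and 38.6 CPM and subcluster 3 had 29.0, 49.5 and 36.1 CPM. In subcluster 1 the mice were far apart, at 3.4, 71.3 and 20.8 CPM, and mouse 1 contributed 64 of its 785 cells. The plasmacytoid subcluster 9 had 24.6, 26.6 and 39.2 CPM. Type 1 dendritic cell-like subclusters 6 and 11 were near 0, at 0.944 and 0.997 CPM on average.

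**Figure D1:**
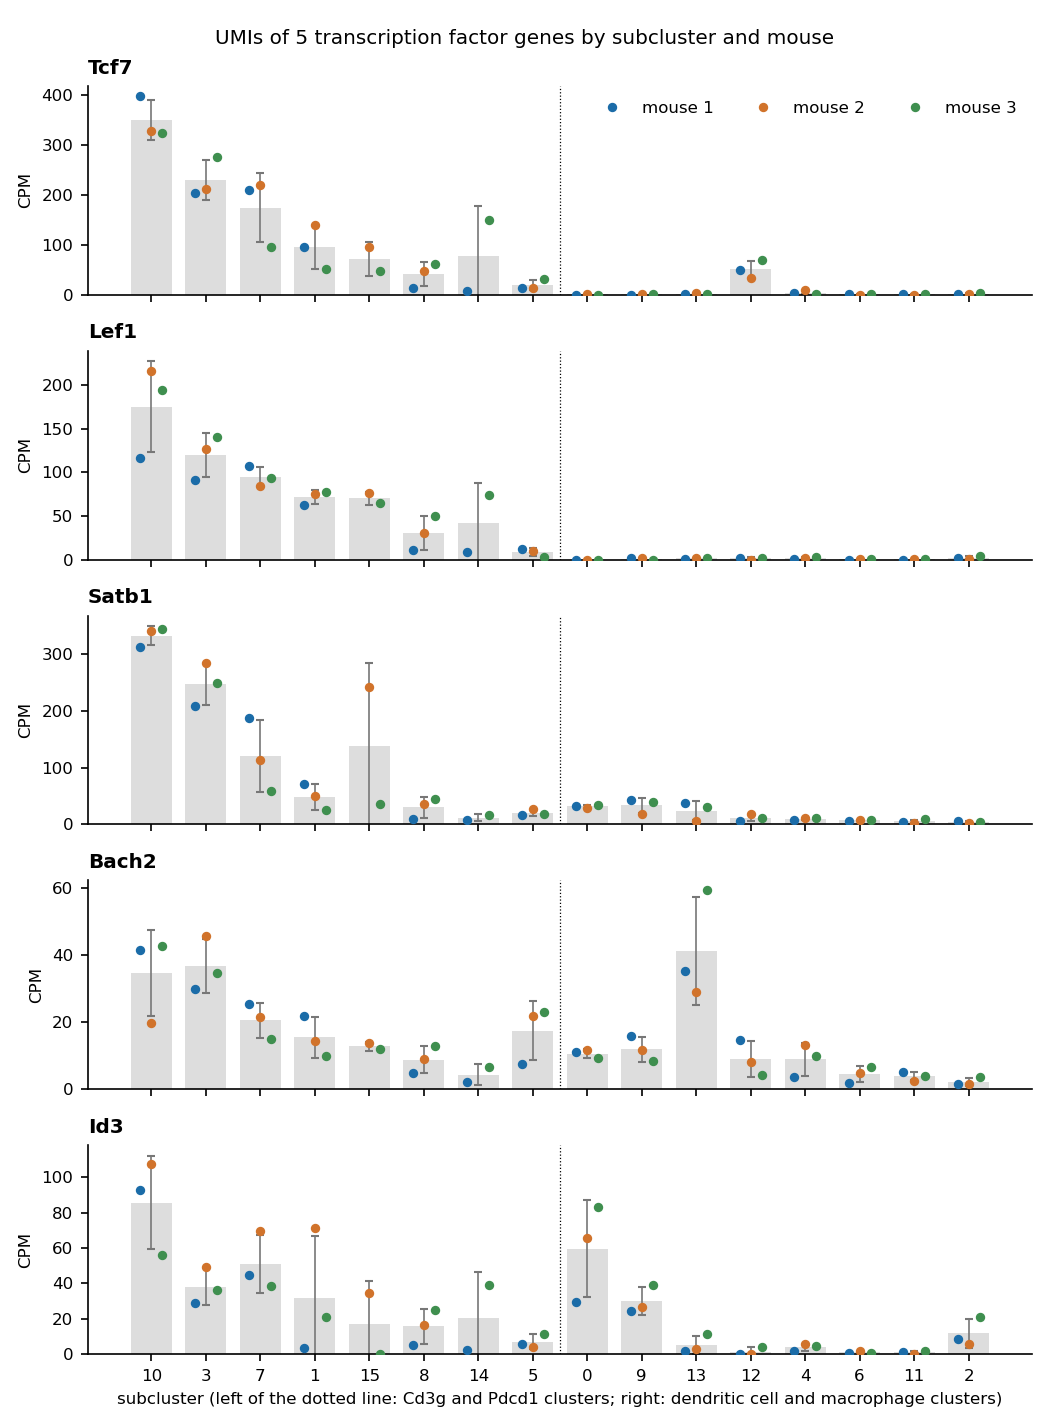
CPM of each gene (vertical axis, linear, own scale per panel) in the 16 subclusters (horizontal axis). Points are mice, grey bars the mean over mice and error bars the SD. Means of Tcf7, Lef1 and Satb1 step down from subcluster 10 through 3 and 7 to the Pdcd1 cluster. In its subcluster 14, Tcf7 and Lef1 lie far apart between mice 1 and 3. Satb1 and Id3 return in the plasmacytoid subclusters 0 and 9. Bach2 has its highest mean in subcluster 13, with mice overlapping those of subclusters 3 and 10.

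Shares of cells with a UMI gave the same leading groups once depth was made equal. Each cell was thinned to 7543 UMIs, which left out 596 shallower cells and kept 125 of 129 in subcluster 10, 451 of 632 in 3, 241 of 351 in 7, 552 of 785 in 1 and 923 of 931 in 0. In subcluster 10, 110 of 125 cells had a Tcf7 UMI (88.0%, exact Clopper-Pearson 95% interval 81.0 to 93.1%), 83.2% had Satb1 (75.5 to 89.3%), 65.6% had Lef1 (56.6 to 73.9%), 30.4% had Id3 (22.5 to 39.3%) and 20.0% had Bach2 (13.4 to 28.1%). Unthinned, the 5 shares were 94.6, 89.9, 76.7, 43.4 and 31.0% in the same order. In subcluster 3 the shares were 69.0% for Tcf7, 76.5% for Satb1, 49.0% for Lef1, 20.4% for Bach2 and 14.9% for Id3. Bach2 was found in 27.8% of the cells of subcluster 13 (19.9 to 36.9%, and 42.6% unthinned). In the plasmacytoid subcluster 0, Satb1 was found in 20.6% (18.0 to 23.3%) and Id3 in 14.4% (12.2 to 16.8%) of 923 cells, beside 0.433% for Tcf7 and 0 cells for Lef1. Taking 3 counts over the total as the limit of a count of 0, this allows a share with a UMI of up to 0.325%, which limits detection and not the cells expressing Lef1. Unthinned, Satb1 was in 32.9% and Id3 in 19.1% of subcluster 0. Genes that the cell types should lack give the background. Cd3e, a T cell receptor subunit, was in 3.36% of subcluster 0, Siglech, a plasmacytoid receptor, in 2.45 to 5.32% of the T and NK-like subclusters other than 14 (0 of 79 cells), and Lyz2, a myeloid lysozyme, in 35.2 to 46.2% of the T and NK-like subclusters, which is the background that an abundant transcript reached. Intervals cover counting error only.

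The mature dendritic cell-like subcluster 12 had a Tcf7 UMI in 27 of 123 thinned cells (22%, interval 15 to 30.3%, and 33.6% unthinned), and in 23.4, 8.33 and 26.9% of the cells of mice 1, 2 and 3. Cd3e was in 11.4% of the same cells and Lef1 in 0.813%, against 97.9% and 42.3% in subcluster 7, where Tcf7 was in 44.0%. The part of T cell RNA in the Tcf7 level of subcluster 12 was not tested.

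Several members were often found in the same cell. Subclusters with high shares of the single genes hold several together even if the genes vary independently. No expectation from those shares was computed, so the counts do not show that the genes go together within a subcluster. In subcluster 10, 84 of 125 thinned cells (67.2%) held UMIs of at least 3 of the 5 genes, and 1 cell held none. In subcluster 3, 195 of 451 cells (43.2%) held at least 3, in subcluster 7 54 of 241 (22.4%), and in subcluster 1 35 of 552 (6.34%). In the Pdcd1 cluster 7 of 443 cells of subcluster 5 (1.58%) and 14 of 327 of subcluster 8 (4.28%) did so. Subcluster 14 had 2 such cells of 79 (2.53%). Plasmacytoid cells held 1 gene in 29.6% (subcluster 0) and 37.3% (subcluster 9) of cells, and at least 3 in 0.758% and 0%.

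**Figure D2:**
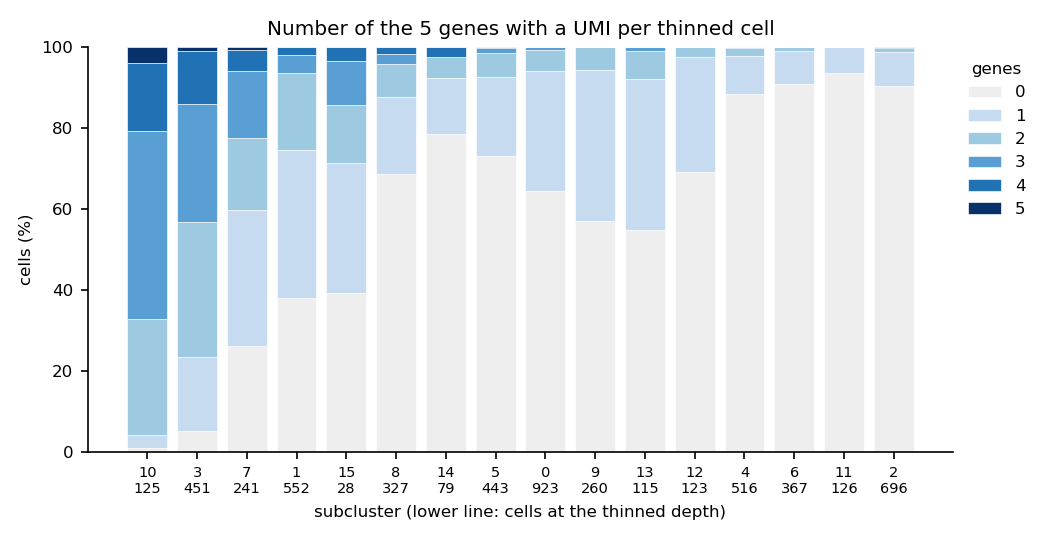
Stacked bars give the percent of thinned cells (vertical axis) with UMIs of 0 to 5 of the genes in each subcluster (horizontal axis, with the number of cells beneath). Subcluster 10 is the only one in which most cells, 67.2%, held 3 or more.

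The relatives of the members were distributed differently. Tcf7l2, a TCF relative, stood at 117 ± 11.4 CPM in subcluster 0 and 111 ± 10.5 CPM in subcluster 9 (SD, n = 3), the plasmacytoid cells in which Tcf7 was near 0, and at 0.383 CPM in subcluster 10. Tcf7l1 was low, with its highest mean in the mature dendritic cell-like subcluster 12 at 11.2 ± 4.95 CPM (SD, n = 3). Id2, the relative of Id3, had 123 ± 5.32 CPM in subcluster 10 (SD, n = 3), below each other T or NK-like subcluster, and 21.1 ± 4.64 CPM in subcluster 0 (SD, n = 3), the 2 groups with the most Id3. Subcluster 13 had as little Id2 (21.5 ± 15.8 CPM, SD, n = 3), but without high Id3. The highest Id2 level was 1367 ± 149 CPM in the type 1 dendritic cell-like subcluster 6 (SD, n = 3), where Id3 was lowest. Tcf4, an E protein of plasmacytoid cells that Id proteins can bind, was at 1710 ± 69.9 CPM in subcluster 0 and 1843 ± 87.5 CPM in subcluster 9 (SD, n = 3). Bach1 and Bach2 shared subcluster 13 as a high point (Bach1 120 ± 21.9 CPM, SD, n = 3), but Bach1 was also at 118 ± 8.08 CPM in macrophage-like cells (SD, n = 3), where Bach2 was lowest.

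**Figure D3:**
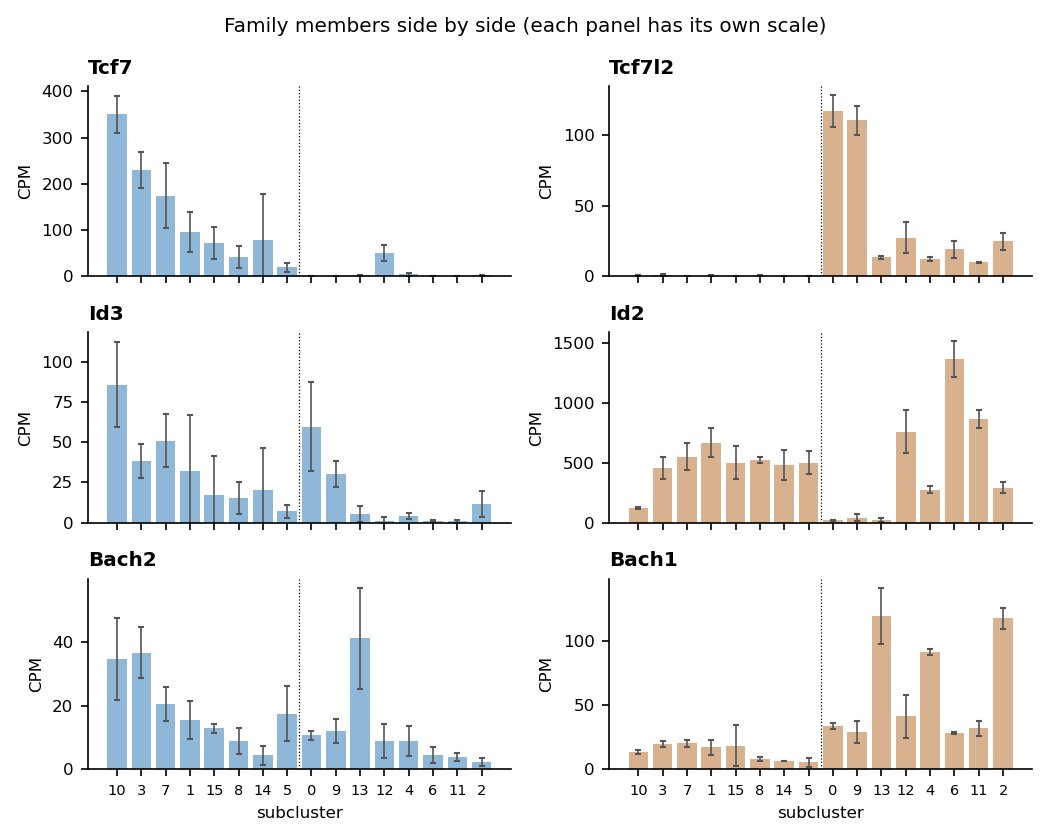
Mean CPM over mice with SD (vertical axes, own scale per panel) of 3 members on the left and a relative of each on the right, over the 16 subclusters (horizontal axis, T and NK-like left of the dotted line). Tcf7l2 is at 117 CPM in subcluster 0 where Tcf7 is near 0, and Id2 is at 123 CPM in subcluster 10 where Id3 is highest.

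The pattern of each member over the 16 subcluster means was set beside that of 6514 genes with enough UMIs, by Pearson r of log2(CPM + 1). The subclusters share libraries and differ in depth, so r is a description. The genes like Tcf7 included Tesc (r = 0.929), Arhgap45, Zdhhc18 and Txk, with Lef1 at rank 8 (r = 0.921). Lef1 was closest to Sidt1 (r = 0.982), Nt5e, S1pr1, Dgka and Apol7e. Nt5e encodes the ectoenzyme CD73 and S1pr1 a receptor for tissue egress. Satb1 was closest to Tmem108 (r = 0.937), Nsg2, Pim2, Tpt1 and Srrm2. Bach2 was closest to Mrpl24 (r = 0.854), Foxo1, which encodes a factor that drives Il7r, Huwe1, Nsa2 and Satb1 (r = 0.809). Id3 was closest to Cmah (r = 0.911), Macf1, Mapk8ip3, BC005561 and Slamf6, and was least like Tcf7 among the members (r = 0.426). These names depend on the choices: 9 of the 25 stayed with Spearman's rho and 2 of 25 over the 8 T and NK-like subclusters alone, where Tcf7 and Id3 had r = 0.867.

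The tests concern CD8-gate cells, cells of the Cd3g and Pdcd1 clusters with UMIs of a CD8 gene (Cd8a, Cd8b1) and a CD3 gene (Cd3g, Cd3d, Cd3e) but not of Cd4. There were 2148 such cells. A Tcf7 UMI was found in 25.7, 47.0 and 32.4% of them in mice 1, 2 and 3, a Lef1 UMI in 26.3, 40.2 and 46.0%, a Satb1 UMI in 29.7, 35.2 and 23.7%, a Bach2 UMI in 11.9, 21.3 and 12.3% and an Id3 UMI in 10.2, 23.2 and 16%. Cells with at least 1 UMI of a gate gene were matched to equal numbers without one inside each mouse, subcluster and bin of total UMIs (5 bins), summed per mouse and compared with edgeR's quasi-likelihood F test with the mouse as block and Benjamini-Hochberg adjustment over all genes tested. The matching gives both classes of a mouse the same number of cells from each subcluster. In the Tcf7 gate 183 cells per class came from subcluster 1, 95 from 7, 20 from the NK-like 3 and 6 from 10. In the Pdcd1 gate 279 came from subcluster 1 and 133 from 7, beside 9, 43 and 4 from subclusters 5, 8 and 14. Subcluster 3 gave 50, 25, 41 and 49 cells per class in the Lef1, Satb1, Bach2 and Id3 gates. A cell without a UMI may still have held the transcript, and the 9 gates drew on the same 2148 cells, so their results are not independent. As an alternative, 640 cells with 2 or more UMIs of Cd79a, Lyz2 and C1qa together, markers of B and myeloid cells, were left out. No call of a member in any gate held in the fit without the mouse as block.

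Cells with a Tcf7 UMI had more of every other member (404 cells per class). Of all 8117 genes tested, 3.49% passed in either direction, 1.5% upward and 1.98% downward, while 4 of 4 members rose, each in 3 of 3 mice. Lef1 was at 54.3, 91.8 and 96.9 CPM in mice 1, 2 and 3 with a Tcf7 UMI and at 9.20, 40.6 and 58.1 CPM without (log2 difference 1.19 ± 0.20, SE, adjusted p = 0.0011). Satb1 was at 63.5, 139 and 83.0 CPM with and 24.8, 58.8 and 21.9 CPM without (1.55 ± 0.16, SE, adjusted p = 6.8e-06). The classes overlapped across mice for Lef1 and not for Satb1. Bach2 did not overlap either, at 23.3, 30.3 and 25.4 CPM with and 9.20, 13.8 and 11.2 CPM without (1.23 ± 0.23, SE, adjusted p = 0.0039). Id3 was at 45.9, 71.0 and 51.2 CPM with and 2.83, 44.1 and 11.2 CPM without (1.79 ± 0.30, SE, adjusted p = 0.0011), where mouse 2 without a Tcf7 UMI came close to mouse 1 with one. Pdcd1 itself was lower in 3 of 3 mice at -0.49 ± 0.13 (SE) and missed the threshold (adjusted p = 0.051). Without mouse 3 the calls of Bach2 (1.22, adjusted p = 0.11) and Id3 (1.55, adjusted p = 0.2) were lost and 101 genes passed in place of 283. With DESeq2 the same 2 members did not pass (adjusted p = 0.53 for Bach2 and 0.44 for Id3).

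In the same gate, the lists fixed for other genes moved as follows. Of 18 tested genes of naive and central memory cells, 9 rose and 0 fell, with a median log2 difference of 0.58 beside 0.01 over all genes. Among them were Il7r, the IL-7 receptor (138 ± 31.1 against 29.8 ± 11.2 CPM, SD, n = 3; log2 2.29 ± 0.14), Dapl1 (3.82 ± 0.31) and Ccr7, the lymph node chemokine receptor (2.25 ± 0.29, SE). Of 10 genes of progenitor exhausted cells 5 rose, among them Slamf6, the surface receptor used to isolate these cells (77.6 ± 6.17 against 24.1 ± 11.1 CPM, SD, n = 3; 1.67 ± 0.21), the chemokine Xcl1 (1.76 ± 0.28) and Tnfsf8 (2.90 ± 0.32, SE). Of 16 terminal exhaustion and effector molecules 12 fell and 0 rose, with a median of -0.89. Gzmb, a granzyme, was at 199 ± 70.2 against 1022 ± 220 CPM (SD, n = 3; -2.34 ± 0.16), the pore former Prf1 at -2.58 ± 0.24, Havcr2, which encodes TIM-3, at -3.02 ± 0.38 and the chemokine Ccl4 at -1.36 ± 0.14 (SE). Of 17 effector and exhaustion transcription factors 6 fell and 0 rose: Id2 (-0.70 ± 0.09), Irf8 (-0.90 ± 0.12), Prdm1, which encodes BLIMP-1 (-1.74 ± 0.27), Tox (-0.61 ± 0.12), Rbpj (-0.55 ± 0.13) and Nr4a2 (-0.51 ± 0.14, SE). Tbx21, which encodes T-bet, did not pass (-0.06 ± 0.16, SE, adjusted p = 0.92). Few partners of the members passed: of 12 tested TCF/LEF and Wnt genes 1 passed, Lef1 itself, while Ctnnb1, which encodes β-catenin, was at 0.06 ± 0.14 and Tle4 at 0.25 ± 0.15. Among 12 BACH and AP-1 genes 1 passed, Bach2, and among 12 SATB and chromatin genes 1, Satb1. Other cell markers moved too. Trdc, the γδ T cell receptor constant gene, fell (-2.39 ± 0.40), though it was higher (0.39, adjusted p = 0.66) with cells matched by depth only. The 5 γδ markers summed to 24.7 to 74.1 CPM with and 58.1 to 151 CPM without, and those of NK cells to 170.5 to 409 against 512 to 891 CPM, Prf1 included. Prf1 alone was at 70.5 ± 38.6 against 466 ± 210 CPM (SD, n = 3). Of 7 tested NK cell markers 2 fell and 1 rose. The 11 T cell markers summed to 8727 to 10123 CPM with and 8757 to 10673 CPM without, lower in 3 of 3 mice with Cd3g passing. Monocyte markers summed to 1233 to 2285 CPM with and 1284 to 3282 CPM without. They were also lower in 3 of 3 mice, with Ccr2 and Plac8 passing. The 6 proliferation markers summed to 1018 to 1409 CPM with and 538 to 1079 CPM without, with Mki67, Top2a and Stmn1 passing. The 4 neutrophil markers, too low for the test, summed to 3.46 to 6.36 CPM with and 8.65 to 340 CPM without. The part of these markers in the result was not tested. Il7r, Dapl1, Slamf6, Id2, Irf8, Gzmb, Prf1 and Ccl4, 8 of 14 other genes followed through the alternatives, passed in each that kept the mouse as block. The calls of Ccr7 (1.65, adjusted p = 0.11) and Trdc (-2.90, adjusted p = 0.055) were lost without mouse 3, that of Tnfsf8 with cells thinned (0.87, adjusted p = 0.3), that of Prdm1 at 2 UMIs of Tcf7 (-1.47, adjusted p = 0.13), and those of Xcl1 (adjusted p = 0.58) and Havcr2 (adjusted p = 0.31) with DESeq2.

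**Figure D4:**
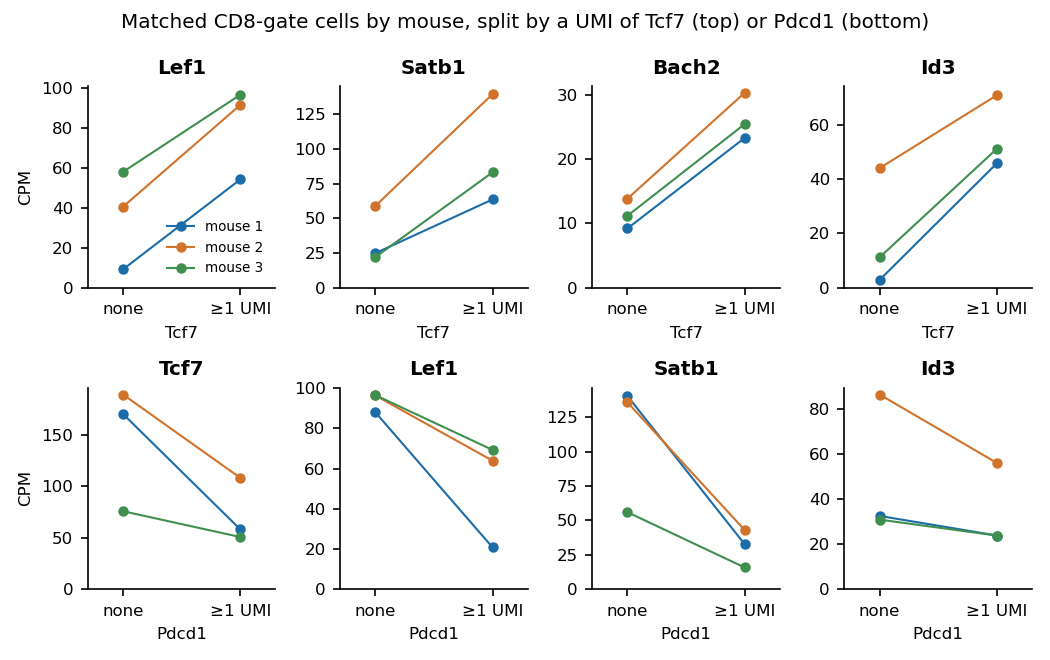
CPM per mouse (vertical axes, linear, own scale per panel) in matched CD8-gate cells without and with a UMI of the gate gene (horizontal axes), Tcf7 in the top row and Pdcd1 in the bottom row. Lines join the classes of 1 mouse. Each line goes up in the top row, as for Bach2 from 9.20 to 23.3 CPM in mouse 1. Each goes down in the bottom row, which shows Tcf7, Lef1, Satb1 and Id3. Bach2 is not drawn there: with a Pdcd1 UMI it was lower in 2 mice and higher in mouse 1 (14.8 against 12.3 CPM).

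A Lef1 UMI marked the same direction for Tcf7 and Satb1 with smaller differences (662 cells per class). Of 9404 genes 0.532% passed (0.287% upward and 0.245% downward), and 2 of 4 members did. Tcf7 was at 81.0, 136 and 88.6 CPM with and 49.4, 61.7 and 67.6 CPM without (0.68 ± 0.11, SE, adjusted p = 0.0016). Satb1 was at 64.8, 119 and 67.3 CPM with and 42.3, 47.5 and 34.0 CPM without (0.95 ± 0.11, SE, adjusted p = 3.5e-05). Neither overlapped between the classes. Bach2 at 0.14 ± 0.20 (adjusted p = 0.93) and Id3 at 0.26 ± 0.15 (adjusted p = 0.73) did not pass, but did with cells matched by depth and not by subcluster (Bach2 0.73, adjusted p = 0.027; Id3 0.67, adjusted p = 0.0051). Of 18 naive and central memory genes 7 rose, among them Klf2, a factor for quiescence and egress (392 ± 175 against 236 ± 128 CPM, SD, n = 3; 0.72 ± 0.09) and Il7r (0.74 ± 0.11, SE). Tox (-0.41 ± 0.08), Irf8 (-0.42 ± 0.08) and Ifng (-0.33 ± 0.07, SE) fell. Trdc fell too, and the γδ markers summed to 30.9 to 96.6 CPM with and 40.9 to 128 CPM without, lower in 3 of 3 mice. Neutrophil markers reached 4.77 CPM with and 204 CPM without, and the part of either was not tested. None of the 7 other genes followed through the alternatives passed in every one that kept the block. Klf2 and Il7r (adjusted p = 0.19 for each) were lost with DESeq2 alone. Irf8 was lost without mouse 1 (-0.32, adjusted p = 0.27) and with another draw (-0.33, adjusted p = 0.13), Tox without mouse 1 (-0.41, adjusted p = 0.052) and at 2 UMIs of Lef1 (-0.42, adjusted p = 0.22), and Ifng without mouse 3 (-0.27, adjusted p = 0.31) and with another draw (-0.13, adjusted p = 0.94). No member passed with DESeq2 (adjusted p = 0.38 for Tcf7 and 0.052 for Satb1), which called 0 genes in this gate, and 95 genes passed without mouse 2 in place of 50.

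With a Satb1 UMI, Tcf7 and Lef1 rose (378 cells per class). Of 8660 genes 0.231% passed (0.139% upward and 0.0924% downward), and 2 of 4 members did. Tcf7 was at 60.8, 110 and 132 CPM with and 33.7, 56.2 and 55.5 CPM without (1.06 ± 0.12, SE, adjusted p = 0.001), with no overlap. Lef1 was at 33.8, 60.6 and 106 CPM with and 21.3, 27.2 and 67.7 CPM without (0.80 ± 0.14, SE, adjusted p = 0.02), and mouse 3 was high in both classes. Bach2 (0.69 ± 0.28, adjusted p = 0.62) and Id3 (0.74 ± 0.22, adjusted p = 0.35) did not pass, but did with cells matched by depth only (1.07, adjusted p = 0.0019, and 0.95, adjusted p = 0.0003). Id3 also passed with no filter on low counts (0.75, adjusted p = 0.0082). Of 18 naive and central memory genes 6 rose, among them Ccr7 (54.5 ± 22.4 against 14.3 ± 9.18 CPM, SD, n = 3; 1.98 ± 0.21), with S1pr1 at 1.49 ± 0.21 and Klf2 at 0.74 ± 0.09 (SE). The effector genes Gzmk (-0.80 ± 0.11), Ccl4 (-0.87 ± 0.14), Ccl5 (-0.39 ± 0.06) and S100a4 (-0.61 ± 0.09, SE) fell. The γδ markers summed to 36.4 to 69.6 CPM with and 47.7 to 133 CPM without, and neutrophil markers to 3.22 to 5.05 CPM with and 3.21 to 486 CPM without. Their part was not tested. Klf2 was the 1 of 8 other genes followed that passed in every alternative with the block. Without mouse 3 the calls of Ccr7 (1.61, adjusted p = 0.1), S1pr1 (1.83, adjusted p = 0.27), Gzmk (-0.86, adjusted p = 0.31), Ccl4 (-0.89, adjusted p = 0.55), Ccl5 (-0.37, adjusted p = 0.52) and S100a4 (-0.45, adjusted p = 0.29) were lost. Without mouse 2 that of Ccl5 was (-0.34, adjusted p = 0.3). In the same fit without mouse 3 neither member passed (Tcf7 0.92, adjusted p = 0.14; Lef1 0.91, adjusted p = 0.37) and 3 genes passed in place of 20. Lef1 also missed the threshold without mouse 1 (0.86, adjusted p = 0.052) and with DESeq2 (0.82, adjusted p = 0.62), and 63 genes passed without mouse 2.

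With a Bach2 UMI, 1 of 4 members rose, Tcf7, where 0.612% of 8338 genes passed, 0.204% upward and 0.408% downward (287 cells per class). Tcf7 was at 119, 122 and 162 CPM with and 77.6, 59.2 and 120 CPM without (0.65 ± 0.12, SE, adjusted p = 0.025), higher in each mouse though mouse 3 without it overlapped the class with it. Satb1 was at 64.3, 137 and 141 CPM with and 67.0, 43.2 and 86.8 CPM without (0.74 ± 0.21, SE, adjusted p = 0.24). Mouse 1 went the other way, and without it Satb1 passed (1.10, adjusted p = 3.7e-10), as it did at 2 UMIs of Bach2 (1.21, adjusted p = 0.017) and with cells matched by depth only (1.14, adjusted p = 0.0044). Lef1 (0.08 ± 0.17, adjusted p = 0.94) and Id3 (0.29 ± 0.21, adjusted p = 0.77) did not pass. Of 10 progenitor exhausted genes 4 rose, among them Xcl1 (1327 ± 322 against 365 ± 220 CPM, SD, n = 3; 1.94 ± 0.33), Tnfsf8 (1.41 ± 0.20) and the costimulatory Cd83 (2.0 ± 0.35, SE). The cytokine Csf2 (1.73 ± 0.27) rose, and Id2 (-0.55 ± 0.09), Gzmb (-0.90 ± 0.15), Gzmd (-3.12 ± 0.45), Trdc (-1.78 ± 0.28) and the γδ constant gene Tcrg-C2 (-1.71 ± 0.18, SE) fell. Trdc was higher with cells thinned (0.10, adjusted p = 0.98) or matched by depth only (0.20, adjusted p = 0.93). The γδ markers summed to 29.5 to 60.5 CPM with and 49.0 to 200 CPM without, and their part in the result was not tested. No call among the 10 other genes followed held in every alternative with the block. Without the cells holding B and myeloid UMIs, Cd83 (0.49, adjusted p = 0.87), Tnfsf8 (0.93, adjusted p = 0.4), Id2 (-0.40, adjusted p = 0.27) and Trdc (-1.29, adjusted p = 0.14) did not pass. Csf2 (1.45, adjusted p = 0.24) and Tcrg-C2 (-0.99, adjusted p = 0.32) did not at 2 UMIs of Bach2, and Xcl1, Gzmb, Gzmd (adjusted p = 1 for each) and Dapl1 (adjusted p = 0.075) did not with DESeq2. Tcf7 no longer passed with cells thinned (0.51, adjusted p = 0.17), without the same cells (0.35, adjusted p = 0.66) or with DESeq2 (0.68, adjusted p = 0.5). Leaving out mouse 1, 2 or 3 gave 92, 87 or 90 genes in place of 51.

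With an Id3 UMI, 1 of 4 members rose, again Tcf7, where 1.59% of 7725 genes passed, 0.906% upward and 0.686% downward (311 cells per class). Tcf7 was at 219, 168 and 167 CPM with and 127, 138 and 111 CPM without (0.60 ± 0.11, SE, adjusted p = 0.0078), with no overlap. Bach2 was higher in 3 of 3 mice, at 24.5, 30.9 and 25.1 against 12.6, 16.3 and 16.8 CPM, and did not pass (0.81 ± 0.23, SE, adjusted p = 0.1). It passed with another random draw of the matched cells (0.99, adjusted p = 0.03). Lef1 (0.26 ± 0.14, adjusted p = 0.58) and Satb1 (0.20 ± 0.15, adjusted p = 0.78) did not pass, but did with cells matched by depth only (1.06, adjusted p = 0.0011, and 1.27, adjusted p = 0.00013). DESeq2 gave no adjusted p for any member here. The gene group with most changes was that of terminal exhaustion and effector molecules, of which 8 of 15 fell and 0 rose (median -0.90 beside 0.01 over all genes). Gzmb was at 226 ± 125 against 722 ± 98.7 CPM (SD, n = 3; -1.70 ± 0.23), and Prf1 (-1.61 ± 0.24), Ccl3 (-1.80 ± 0.26), Ccl5 (-0.63 ± 0.05) and Havcr2 (-2.08 ± 0.37) fell with it. Id2, the counterpart of Id3, fell (295 ± 47.0 against 507 ± 65.5 CPM, SD, n = 3; -0.73 ± 0.10). Xcl1 (1.67 ± 0.25), Tnfsf8 (1.16 ± 0.21), Cd83 (1.81 ± 0.33), Nrn1 (2.12 ± 0.30) and the inhibitory ligand Cd200 (1.94 ± 0.23, SE) rose, while 1 of 18 naive and central memory genes did, Dapl1 (2.06 ± 0.28). The AP-1 subunit Fos rose (0.47 ± 0.10), but not without mouse 2 (0.48, adjusted p = 0.057) or mouse 3 (0.31, adjusted p = 0.38). Id2, Ccl5, Gzmb, Nrn1, Cd200 and Havcr2, 6 of 13 other genes followed, passed in every alternative with the block. At 2 UMIs of Id3, Cd83 (0.08, adjusted p = 0.97), Xcl1 (0.72, adjusted p = 0.46) and Tnfsf8 (0.83, adjusted p = 0.25) did not pass, with cells thinned Dapl1 (0.83, adjusted p = 0.1) and Ccl3 (-0.50, adjusted p = 0.41) did not, and with DESeq2 Prf1 (adjusted p = 0.072) did not. NK cell markers summed to 276 to 588 CPM with and 451 to 791 CPM without, Prf1 included. Of 8 tested NK cell markers 4 fell and 1 rose. Monocyte markers summed to 1166 to 2157 CPM with and 1537 to 2969 CPM without, with Ccr2 and Plac8 passing. Plasmacytoid markers summed to 343.5 to 497 CPM with and 430 to 508 CPM without, with Runx2 and Irf8 passing. Both sums were lower in 3 of 3 mice. T cell markers were higher in 3 of 3 mice, with Trbc1 passing. The part of all these markers was not tested. Tcf7 did not pass with cells thinned (0.50, adjusted p = 0.08), and 51 genes passed without mouse 2 in place of 123.

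**Figure D5:**
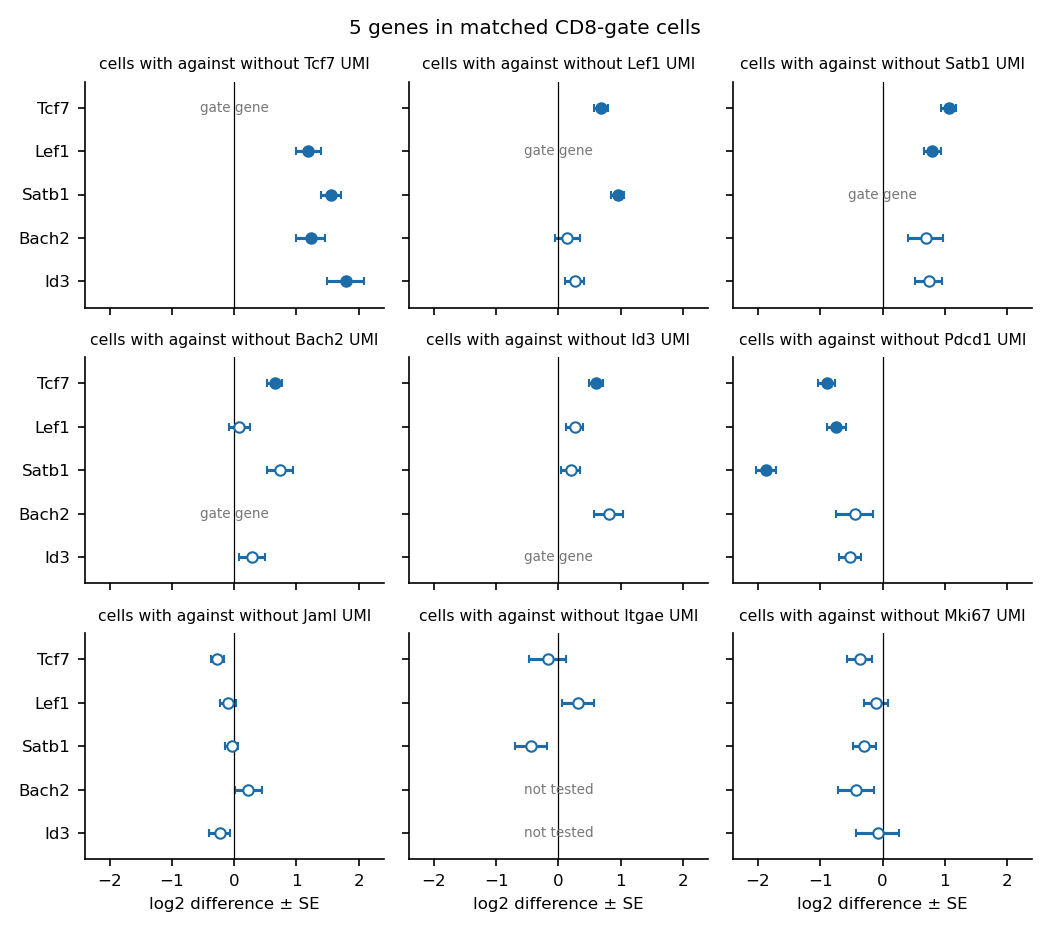
log2 difference ± SE (horizontal axis) of the 5 members (vertical axis) between matched CD8-gate cells with and without a UMI of the gene in each panel's title. Filled points passed the adjusted threshold of 0.05. All 4 points of the Tcf7 panel are filled, from 1.19 to 1.79, and the 3 filled points of the Pdcd1 panel lie below 0.

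A UMI of Pdcd1, which encodes the checkpoint receptor PD-1, marked the opposite direction for Tcf7, Lef1 and Satb1. In the gates of the members Pdcd1 itself did not pass. Beside the Tcf7 gate given above, it differed by -0.01 ± 0.08 in the Lef1, -0.26 ± 0.10 in the Satb1, -0.05 ± 0.10 in the Bach2 and -0.05 ± 0.15 in the Id3 gate (SE). Of 7287 genes 1.81% passed, 0.947% upward and 0.865% downward, and 3 of 5 members fell, each in 3 of 3 mice (494 cells per class, of which 362 from mouse 3). Satb1 was at 32.6, 42.9 and 15.7 CPM with a Pdcd1 UMI and at 140, 136 and 56.0 CPM without (-1.87 ± 0.16, SE, adjusted p = 5.2e-13), with no overlap. Tcf7 was at 57.9, 108 and 50.5 CPM with and 170, 189 and 75.6 CPM without (-0.90 ± 0.13, SE, adjusted p = 7.4e-06), and mouse 3 was low in both classes. Lef1 was at 20.8, 63.9 and 69.3 CPM with and 88.0, 96.4 and 96.5 CPM without (-0.74 ± 0.15, SE, adjusted p = 0.0015), with no overlap. Id3, lower in 3 of 3 mice at -0.52 ± 0.18 (adjusted p = 0.17), and Bach2, at -0.45 ± 0.30 (adjusted p = 0.77), did not pass, but fell with cells matched by depth only (-1.03, adjusted p = 0.0045, and -0.84, adjusted p = 0.041). Of 17 naive and central memory genes 8 fell, among them Il7r (-1.15 ± 0.12) and Klf2 (-0.81 ± 0.10). Of 14 terminal exhaustion and effector molecules 8 rose, among them Lag3 (194 ± 66.8 against 79.5 ± 7.86 CPM, SD, n = 3; 1.10 ± 0.12), Havcr2 (2.34 ± 0.35) and Ccl3 (1.24 ± 0.12), and Tox rose (0.72 ± 0.12, SE). Spp1, which encodes osteopontin, had the largest named rise (153 ± 186 against 5.22 ± 1.89 CPM, SD, n = 3; 4.23 ± 0.26). Trdc fell (-2.61 ± 0.45), but not without mouse 2 (-0.99, adjusted p = 0.85). The other tested γδ marker, Tcrg-C2, rose. The 5 γδ markers summed to 35.3 to 111 CPM with and 15.7 to 158 CPM without, higher in 2 of 3 mice. Proliferation markers summed to 639 to 1415 CPM with and 778 to 1984 CPM without, lower in 3 of 3 mice with Stmn1 and Birc5 passing. T cell markers summed to 9827 to 11362 CPM with and 8182 to 9856 CPM without, higher in 3 of 3 mice with Cd3g passing. Their part in the result was not tested. Il7r, Klf2, Lag3 and Spp1, 4 of 8 other genes followed, passed in every alternative with the block. Havcr2 (1.94, adjusted p = 0.09), Ccl3 (0.79, adjusted p = 0.41) and Tox (0.67, adjusted p = 0.053) did not pass with another draw, and Ccl3 did not with cells thinned (0.17, adjusted p = 0.54). With that other random draw of the matched cells 25 genes passed in place of 132, and Lef1 did not (-0.82, adjusted p = 0.26), nor did Lef1 with DESeq2 (-0.95, adjusted p = 0.087), at 2 UMIs of Pdcd1 (-0.98, adjusted p = 0.11) or without the cells holding B and myeloid UMIs (-0.63, adjusted p = 0.31). Without mouse 2 86 genes passed.

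No member passed in the Jaml, Itgae or Mki67 gates. For Jaml, the surface protein used for the sort, 0.785% of 9428 genes passed (0.594% upward and 0.191% downward) and 0 of 5 members in edgeR (590 cells per class), 1 of 5 at an unadjusted p under 0.05, and 0 of the 3 with an adjusted p in DESeq2. Tcf7 was at 42.3, 78.9 and 80.1 CPM with a Jaml UMI and at 38.9, 96.4 and 112 CPM without (-0.27 ± 0.10, SE, adjusted p = 0.44), lower in 2 of 3 mice. Lef1 (-0.10 ± 0.13), Satb1 (-0.04 ± 0.10), Bach2 (0.23 ± 0.22) and Id3 (-0.23 ± 0.17, SE) did not pass either. Xcl1 (1.23 ± 0.13), the chemokine receptor Cxcr3 (0.39 ± 0.08) and the interferon-induced Isg15 (1.07 ± 0.09, SE) rose, and Ccl3 (-0.88 ± 0.11) and Ccl4 (-0.48 ± 0.10) fell. Of these 5, 1 (Isg15) passed in every alternative with the block. Cxcr3 did not pass without mouse 1 (0.30, adjusted p = 0.21), Ccl4 with cells thinned (-0.16, adjusted p = 0.39), Xcl1 with cells matched by depth only (0.79, adjusted p = 0.12) and Ccl3 with DESeq2 (adjusted p = 0.47). Mki67 and Top2a rose, and proliferation markers summed to 740 to 1524 CPM with a Jaml UMI and 585 to 1401 CPM without, higher in 3 of 3 mice, and their part was not tested. All these cells were sorted as JAML+, so a cell without a Jaml UMI is not shown to lack the protein. Itgae encodes the residency integrin CD103. Its gate had 101 cells per class, and 0.0393% of 5093 genes passed, with 0 of 3 tested members in edgeR, 0 at an unadjusted p under 0.05 and 0 of 5 in DESeq2. Tcf7 was at 99.9, 111 and 16.8 CPM with and 48.4, 156 and 60.7 CPM without (-0.17 ± 0.30, SE), Lef1 differed by 0.32 ± 0.26 and Satb1 by -0.44 ± 0.25 (SE), while Bach2 and Id3 had too few UMIs to be tested. The 2 genes that passed included Ifitm1 (2.96 ± 0.28), an interferon-induced gene that also leads a dendritic cell cluster. Mki67 marks dividing cells. In its gate (267 cells per class) 1.66% of 7654 genes passed (1.45% upward and 0.209% downward), with 0 of 5 members in edgeR, 0 at an unadjusted p under 0.05 and 0 of 5 in DESeq2, beside rises of the mitosis genes Cenpf (2.53 ± 0.40), Nusap1 (2.48 ± 0.34) and Ccna2 (2.34 ± 0.34, SE), of which Cenpf did not pass with DESeq2 (adjusted p = 0.61). Tcf7 was at 17.5, 26.6 and 68.2 CPM with and 17.9, 58.8 and 66.2 CPM without (-0.37 ± 0.20, adjusted p = 0.69). When cells were matched by depth and not by subcluster, Tcf7 (-0.95, adjusted p = 7e-05), Lef1 (-0.68, adjusted p = 0.0042), Satb1 (-1.54, adjusted p = 3.9e-06) and Bach2 (-1.32, adjusted p = 0.0044) fell with an Mki67 UMI.

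The classes of the Tcf7 gate were also summed separately in the 2 clusters, and 1 joint fit tested the difference between clusters. In the Cd3g cluster, Id3 was at 50.8, 89.6 and 44.7 CPM with a Tcf7 UMI and at 7.66, 81.7 and 12.7 CPM without, and in the Pdcd1 cluster at 43.9, 49.9 and 65.3 CPM with and 0.979, 0 and 7.63 CPM without. The test of the difference itself gave 2.98 ± 0.71 (SE, adjusted p = 0.19), with 0.0975% of 7178 genes passing. Satb1 was at 127 ± 33.7 against 57.6 ± 37.3 CPM in the Cd3g cluster and at 79.9 ± 53.6 against 12.3 ± 3.96 CPM in the Pdcd1 cluster (SD, n = 3), a difference of 1.11 ± 0.50 (SE, adjusted p = 0.89). Lef1 differed by 1.05 ± 0.42 (adjusted p = 0.89) and Bach2 by 0.73 ± 0.49 (adjusted p = 0.93). So 0 of 4 members passed in edgeR (DESeq2 was not run here), 3 of 4 had an unadjusted p under 0.05, and each was higher with a Tcf7 UMI in 3 of 3 mice of both clusters.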

How the data were processed

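Cells of 1 group from 3 mice were measured in 1 gene expression library and 1 antibody-tag library. The deposited table holds UMI counts, not normalized, for 15416 genes in 5976 cells; per the submitters' processing notes, Cell Ranger 3.1.0, mm10 and Seurat 3.1.5 were used, with filters, doublet removal and strand not given in the sources used here. The deposited annotation gives each cell's hashtag, cluster and percent of mitochondrial UMIs. Mouse numbers are hashtag numbers, equated with mice because the design text gives n = 3. Separate handling before pooling is not described. With the mouse as block, p-values measure how the difference between classes within a mouse varied over these 3 samples. They do not measure the spread between mice. No doublet caller was run.

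Counts were summed per mouse and class with Python 3.11.15 (numpy 2.4.6, pandas 2.3.3, scipy 1.17.1). Gates were compared with edgeR 4.0.16 in R 4.3.3 (TMM, filterByExpr, quasi-likelihood F test, mouse as block because both classes come from the same animal, adjusted p under 0.05), and with DESeq2 1.42.0 as an alternative. The test was run on counts simulated for the Tcf7 gate, with a fixed dispersion and no differences between mice. That run cannot show how the test behaves where mice differ. Subclusters use the authors' resolution of 0.8 and clusters that of 0.1. Markers count as met at 2-fold over other cells and in 25% of cells. The members, gene lists and gates were chosen with earlier results of these data known. Named genes were the 5 largest changes per direction reaching 30 CPM in one class and keeping their sign in every mouse, plus up to 3 passing genes per list, of which a selection is printed, and list genes given with their list. Alternatives were other scaling, no filter, no block, DESeq2, leaving out a mouse, 2 UMIs for the gate, matching by depth only, another draw, removal of cells with conflicting lineage UMIs, a stricter cell filter (5000 UMIs, 3% mitochondrial) and thinning. Foxp3 has no row, and a few genes that the rule names are not reported here.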

Additional observations from a re-analysis of the deposited data

Results flagged for a closer look

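The change with a Tcf7 UMI differed between the Pdcd1 and Cd3g clusters for 7 of 7178 genes by edgeR's test of the difference itself (Pdcd1 minus Cd3g cluster, log2 ± SE). Klra1, an NK receptor gene, differed by 6.60 ± 0.96 (adjusted p = 0.016), at 23.1 CPM with against 59.3 without in the Cd3g cluster and 16.7 against 0.626 in the Pdcd1 cluster. Rgs10 differed by 1.77 ± 0.28 (adjusted p = 0.016), at 94.2 against 73.8 CPM and 138 against 29.7 CPM. Tespa1, a T cell receptor signalling adaptor, differed by 2.16 ± 0.34 (adjusted p = 0.016), at 86.5 against 68.0 CPM and 77.1 against 13.9 CPM. Lyst, a lysosomal trafficking gene, went the other way at -1.59 ± 0.26 (adjusted p = 0.018), with 90.7 against 81.3 CPM and 41.8 against 108 CPM. Gzma differed by 3.04 ± 0.53 (adjusted p = 0.021), at 21.6 against 101 CPM and 153 against 82.3 CPM, where mouse 3 alone had 418 CPM with a Tcf7 UMI in the Pdcd1 cluster. Lta, a lymphotoxin gene, differed by 4.01 ± 0.68 (adjusted p = 0.021), at 14.4 against 28 CPM and 21.8 against 2.13 CPM. Pdlim1 differed by 2.17 ± 0.37 (adjusted p = 0.021), at 54.3 against 38.7 CPM and 54.5 against 9.33 CPM. The Pdcd1 cluster gave 20 to 40 cells per mouse and class. Without mouse 1, 2 or 3, 4, 5 or 3 genes passed, of which 2, 2 and 0 were among these 7.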

How the results depend on the processing

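At least 4 of 5 members were highest in subcluster 10 under each alternative run on the levels and shares, while the counts of genes passing in the gates moved. The mouse is the block. With no replicate block 4 genes passed in the Tcf7 gate, 1 in the Itgae gate and 0 in the Lef1, Satb1, Bach2, Id3, Jaml, Pdcd1 and Mki67 gates and in the difference between clusters, and no member passed (adjusted p 0.13 to 0.69 in the Tcf7 gate, 0.71 or more in the others). DESeq2 called 69, 0, 10, 13, 47, 11, 35, 1 and 24 genes in the Tcf7, Lef1, Satb1, Bach2, Id3, Jaml, Pdcd1, Itgae and Mki67 gates, in place of 283, 50, 20, 51, 123, 74, 132, 2 and 127. Matching by depth only gave 1155, 485, 944, 83, 390, 684, 7 and 857 in the Tcf7, Lef1, Satb1, Bach2, Id3, Pdcd1, Itgae and Mki67 gates. Without lineage-conflicting cells the Tcf7, Lef1, Satb1, Bach2, Id3, Pdcd1 and Mki67 gates gave 133, 17, 36, 23, 43, 34 and 33. With no filter the Lef1, Satb1, Bach2, Jaml, Itgae and Mki67 gates gave 23, 121, 184, 42, 22 and 203. Thinned cells gave 99, 37, 35, 35, 6 and 67 in the Satb1, Id3, Jaml, Pdcd1, Itgae and Mki67 gates. A gate at 2 UMIs gave 232, 61, 84, 19 and 80 in the Satb1, Id3, Pdcd1, Itgae and Mki67 gates. Another draw gave 93 in the Satb1 and 25 in the Pdcd1 gate, and RLE scaling 5 in the Itgae gate. Leaving out 1 mouse gave 101 to 281 genes in the Tcf7, 53 to 95 in the Lef1, 3 to 63 in the Satb1, 87 to 92 in the Bach2, 51 to 159 in the Id3, 58 to 146 in the Jaml, 86 to 103 in the Pdcd1, 9 to 15 in the Itgae and 96 to 150 in the Mki67 gate, and 3 to 5 for the difference between clusters. Of the 25 genes most like the members, 9 remained with Spearman's rho and 2 over T and NK-like subclusters.

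Besides Trdc, given above, no reversed value belonged to a gene that had passed. Thinning reversed Id3 in the Jaml (0.20), Lef1 (-0.14), Pdcd1 (0.11) and Satb1 (-0.05) gates, Lef1 in the Mki67 (0.01), Satb1 in the Id3 (-0.04) and Mki67 (0.13) and Trdc in the Bach2 gate (0.10). Matching by depth reversed Id3 in the Jaml gate (0.08) and Trdc in the Bach2 (0.20) and Tcf7 (0.39) gates. Another draw reversed Id3 in the Jaml (0.03) and Mki67 (0.24), Lef1 in the Mki67 (0.21) and Satb1 in the Jaml gate (0.15). Without lineage-conflicting cells Id3 was at -0.51 in the Bach2 and -0.06 in the Satb1 gate, and Satb1 at -0.03 in the Id3 and 0.14 in the Jaml gate. Tcf7 reversed in the Itgae gate at 2 UMIs (0.37), and Id3 in the Mki67 gate with DESeq2 (0.01). Leaving out 1 mouse reversed values within these ranges: in the Jaml gate Bach2 -0.01 to 0.55, Satb1 -0.08 to 0.01 and Lef1 -0.28 to 0.05, in the Mki67 gate Id3 -0.70 to 0.33 and Lef1 -0.32 to 0.13, in the Bach2 gate Lef1 -0.15 to 0.28, in the Id3 gate Satb1 0.00 to 0.46, and in the Itgae gate Tcf7 -0.86 to 0.15 and Lef1 -0.16 to 0.63. The cause was not tested. The 101 to 662 cells per class limit what the gates can show.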
